A study of Homo sapiens with 24 samples.

Results

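The AP-1 and immediate early transcription factors were taken to be JUN, JUNB, JUND, FOS, FOSB, FOSL1, FOSL2, ATF3 and EGR1, and every probe of an Illumina bead array that carries one of these gene symbols was read. They are 9 of the 20046 genes named on the array and hold 11 of its 47231 probes, 3 for ATF3 and 1 for each other gene. RNA came from 24 samples of Huh-7 cells, which derive from a human liver cancer, in 3 stable lines that each express a short hairpin RNA from a lentivirus. The shHIF-1A line (hairpin against HIF1A, the oxygen-regulated subunit of hypoxia-inducible factor 1) was measured after 3 h (n = 3), 6 h (n = 2) and 12 h (n = 2) at 1% oxygen. The shNDRG3 line (hairpin against NDRG3, one of the NDRG proteins) was measured after 6 h, 12 h and 24 h (n = 2 each). The control line shGFP, which carries a hairpin against the green fluorescent protein, was measured after 3 h (n = 3), 6 h, 12 h and 24 h at 1% oxygen and in normoxia (n = 2 each). All lines grew in the same medium with fetal bovine serum, and the labels do not say whether a line was a clone or a pool, nor how many hairpins were used per gene. No normoxia array of a knockdown line, no shHIF-1A array at 24 h and no shNDRG3 array at 3 h was analysed here.

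AP-1 is a dimer of basic leucine zipper proteins. JUN, JUNB and JUND can pair with each other or with a FOS protein, whereas FOS, FOSB, FOSL1 (also called FRA-1) and FOSL2 (FRA-2) need a JUN partner to bind DNA. ATF3 is a stress-induced member of the related ATF family that also pairs with JUN proteins, and EGR1 is a zinc finger factor. Several of these genes are immediate early genes, whose transcription starts within minutes of growth factor or stress signalling without new protein synthesis, largely downstream of the MAP kinases ERK and JNK. In liver cells, JUN is known for its part in regeneration and tumour formation.

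The promoters of 4 members are shown, chosen by when they passed the test against normoxia in the shGFP line, described further on. JUN and FOS passed from 3 h at 1% oxygen, ATF3 at 24 h, and EGR1 at no time. Each promoter is the 250 bases before the RefSeq transcript start (GRCh38.p14), 5′ to 3′. Capitals mark matches, on either strand, to TGANTCA (the AP-1 site), TGACNTCA (which covers the full CRE, the cyclic AMP response element), TGACGT (the CRE core, which lies inside TGACGTCA) and the CArG box, bound by serum response factor.

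JUN (chr1:58784048-58784297, minus strand): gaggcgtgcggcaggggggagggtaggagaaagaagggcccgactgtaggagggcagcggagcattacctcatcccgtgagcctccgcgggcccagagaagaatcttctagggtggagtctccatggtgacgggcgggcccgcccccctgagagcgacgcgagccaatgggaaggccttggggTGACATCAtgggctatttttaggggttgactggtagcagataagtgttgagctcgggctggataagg
FOS (chr14:75278578-75278827, plus strand): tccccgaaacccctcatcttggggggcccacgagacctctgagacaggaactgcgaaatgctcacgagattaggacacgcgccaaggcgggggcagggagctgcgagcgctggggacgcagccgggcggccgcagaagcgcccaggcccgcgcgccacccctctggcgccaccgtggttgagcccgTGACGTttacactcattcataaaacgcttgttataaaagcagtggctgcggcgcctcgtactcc
ATF3 (chr1:212565157-212565406, plus strand): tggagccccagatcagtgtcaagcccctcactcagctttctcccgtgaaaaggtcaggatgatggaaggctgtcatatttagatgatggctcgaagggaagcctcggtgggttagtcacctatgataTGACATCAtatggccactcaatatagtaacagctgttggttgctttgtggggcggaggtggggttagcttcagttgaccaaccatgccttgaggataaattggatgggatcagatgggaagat
EGR1 (chr5:138465229-138465478, plus strand): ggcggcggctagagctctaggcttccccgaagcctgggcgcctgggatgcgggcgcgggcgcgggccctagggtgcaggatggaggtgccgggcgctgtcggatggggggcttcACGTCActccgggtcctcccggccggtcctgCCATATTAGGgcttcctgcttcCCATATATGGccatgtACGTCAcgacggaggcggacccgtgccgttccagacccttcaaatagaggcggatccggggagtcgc

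JUN and the first of 2 ATF3 starts held the same 8 letters, TGACATCA, at 67 to 60 bases before the start in JUN and at 123 to 116 bases before it in ATF3. The FOS window held TGACGT at 64 to 59 bases before the start, and the EGR1 window held 2 CArG boxes (CCATATTAGG and CCATATATGG) and 2 copies of the CRE core, read here on the other strand as ACGTCA. Windows were found for 8 of the 9 genes (9 windows, with 2 starts for ATF3), none of them for FOSL1. Of these 9 windows, 3 held TGACNTCA, against 6.87% of the 35116 RefSeq windows of that length, 5 held TGACGT (FOS, FOSB, FOSL2, JUND and EGR1), against 7.1%, and 1 held a CArG box, against 1.16%. TGANTCA was found in 0 of the 9 windows and in 6.57% of all. The cores to which hypoxia-inducible factors bind, ACGTG and GCGTG, were in 2 (FOSL2 and EGR1) and 3 (JUN, JUNB and FOS) of the 9 windows, against 18.5% and 32.2% of all. ACGTG can overlap TGACGT, as it did in FOSL2 and EGR1. These matches describe letters in a short window and do not show binding.

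Median deposited signals per array lay between 115 and 150.0, and were 115 and 117 in shGFP cells at 24 h, against 145 and 148 in normoxia. Arrays were therefore brought to the same distribution (quantile normalisation) before levels were compared, and all signals given below are on that scale, where the median probe had a signal of 131. Arrays of a group correlated at r = 0.980 to 0.997 over 15246 genes (15 pairs). The shNDRG3 24 h arrays stood furthest apart, and calls that 1 of them decides, or values that it moves by over 1.5 times, are given below without it. The targeted transcripts were lower in their own lines: HIF1A had signals of 449 to 813 in the shHIF-1A arrays, against 1429 to 2206 in the shGFP arrays, and NDRG3 had 303 to 387 in the shNDRG3 arrays, against 1299.7 to 1790.3 in the shGFP arrays. Of 10 hepatocyte markers measured, only FOXA1 exceeded 2 times the array median on average (albumin lay at log2 0.89 and alpha-fetoprotein at -0.22 relative to it). Of 4 epithelial markers, 2 exceeded 2 times the array median, KRT8 (keratin 8) at log2 6.01 and KRT18 at 3.17. CDH1 (-0.44) and EPCAM (0.37) did not. Among markers of other cell types, 1 of 7 for fibroblasts (COL1A1), 0 of 5 for endothelium and 1 of 5 for blood (CD68) did so. In whole-culture RNA, fewer cells that express a gene and less RNA per cell cannot be told apart. Nothing in the labels makes the replicates separate cultures, and p-values then cover only the spread of these samples, which may be technical.

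A probe was kept for testing if it exceeded its array's median on at least 2 arrays. This left 9 of the 11 probes, 1 for each gene. The 2 dropped ATF3 probes stayed near or under the median, with signals of 82.7 to 118 and 101 to 137 over all arrays. The second of them is annotated to the same RefSeq transcript as the kept ATF3 probe, which had 654 to 3545, so the ATF3 results below rest on 1 of 3 probes. Relative to the array median, on the log2 scale, the kept probe of JUN lay at 3.10 to 6.58, of JUNB at 1.61 to 3.97 and of JUND at 6.12 to 7.33. FOS lay at 2.70 to 4.91, FOSL1 at 0.75 to 4.53 and FOSL2 at 1.09 to 2.28. FOSB (0.41 to 1.68) and EGR1 (0.30 to 1.06) were dim. The mean of EGR1 was under 1.5 times the array median in 8 of 11 groups and that of FOSB in 3. Where a compared group was that dim, background understates the fold, and it is printed as a lower bound. The 9 genes lie on chromosomes 1 (JUN and ATF3), 2 (FOSL2), 5 (EGR1), 11 (FOSL1), 14 (FOS) and 19 (JUNB, JUND and FOSB).

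**Figure D1:**
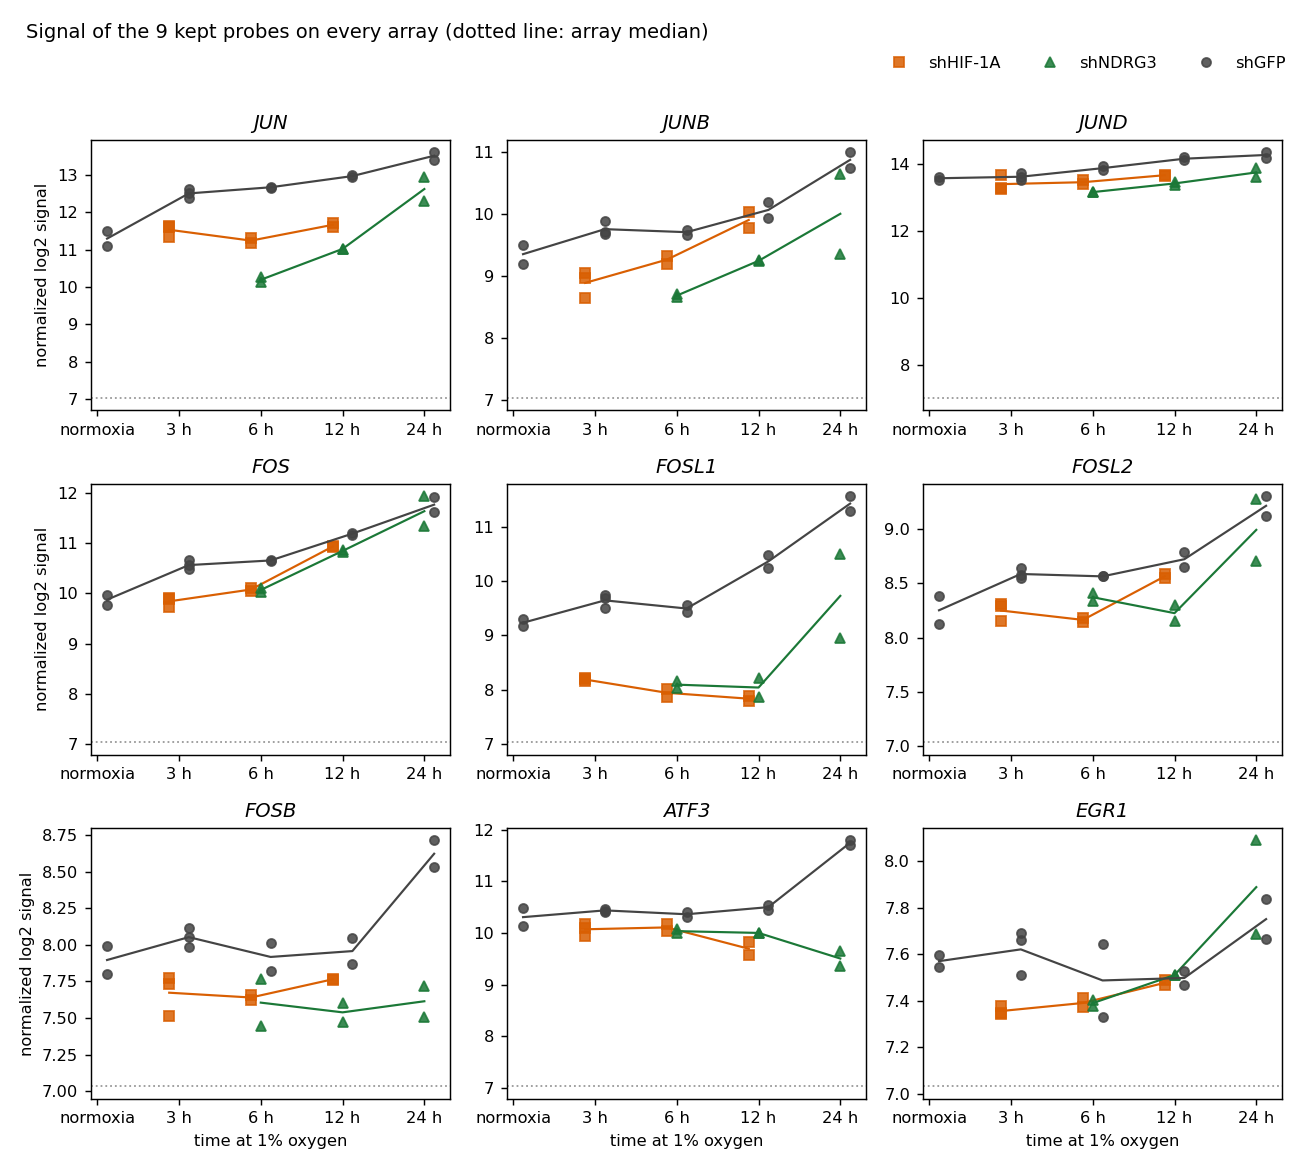
Normalised log2 signal (vertical axis) of the 9 kept probes on every array against time at 1% oxygen (horizontal axis, not to scale in hours); symbols are single arrays, lines join group means, and the vertical axes differ between panels. Within the shGFP line, JUN and FOS lie above their normoxia arrays from 3 h on, and ATF3 and FOSB lie above theirs at 24 h. ATF3 and FOSB lie low in the shNDRG3 line at 24 h.

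The shGFP line was set against its own normoxia arrays at each time to describe the response to 1% oxygen. The members that passed the test were all higher, and first passed at different times. JUN and FOS first passed at 3 h, FOSL1, FOSL2, JUNB and JUND at 12 h, and ATF3 and FOSB at 24 h, while EGR1 did not pass at any time. This order of first passing was not itself tested. At 3 h JUNB and FOSL2 already had log2 changes of 0.40 and 0.34, which did not pass. Past the threshold (adjusted p under 0.05, from a limma fit to all kept probes) were 2 of 9 members at 3 h, against 1.18% of all 15246 genes, 2 at 6 h (2.8%), 6 at 12 h (12.1%) and 8 at 24 h (20.2%), each time all of them higher. The median log2 change of the 9 members was 0.34, 0.30, 0.58 and 1.44 at the 4 times, and that of all genes was 0.0077, 0.004, 0.0081 and -0.0028. The same normoxia arrays served every time, and hours at 1% oxygen cannot be told apart from hours in culture.

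JUN, an AP-1 subunit that can bind DNA as a homodimer, was the member with the largest change at each time. At 24 h FOSL1 was close behind it (log2 2.19, against 2.22 for JUN). The signal of JUN was 6265, 5378 and 5828 at 3 h, against 2189 and 2887 in normoxia. All 3 arrays at 3 h lay above both normoxia arrays, and JUN was 2.31-fold higher (log2 1.21 ± 0.15, adjusted p = 1.28e-05). At 6 h and 12 h it had 6475 and 6552, and 7829 and 8209.6, and at 24 h 12565 and 10878. At 24 h JUN was 4.65-fold above normoxia (log2 2.22 ± 0.16, adjusted p = 9.5e-11), and the 3 h change had already been 1.21 of that 2.22 on the log2 scale. FOS, the prototype partner of JUN, had signals of 1427, 1505 and 1612 at 3 h, against 1005 and 875 in normoxia, without overlap (1.61-fold higher, log2 0.69 ± 0.13, adjusted p = 0.00488). Its signal was 2302 and 2370.0 at 12 h and 3146 and 3862 at 24 h, 3.72-fold above normoxia at the last time (log2 1.89 ± 0.14, adjusted p = 1.63e-10). The 3 h call of FOS was lost on the signals as deposited (0.54, adjusted p = 0.0613) and without normoxia replicate 2 (0.59, adjusted p = 0.054), which left JUN as the only member past the threshold at 3 h.

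FOSL1, a FOS protein that lacks the transactivation domain of FOS and accumulates in cells with lasting ERK activity, first passed the test at 12 h. Its signals were 851, 727 and 824 at 3 h and 686 and 757 at 6 h, against 628 and 574 in normoxia. These arrays lay above normoxia but did not pass the test (0.41 ± 0.24 and 0.26 ± 0.26, adjusted p = 0.566 and 0.777). At 12 h FOSL1 had 1213 and 1423 (2.19-fold higher, log2 1.13 ± 0.26, adjusted p = 0.00321) and at 24 h 2496 and 3021 (4.57-fold higher, log2 2.19 ± 0.26, adjusted p = 3.36e-07). The signals of FOSL2, its closest relative, moved over a narrower range, with 559.7 and 634 at 24 h, against 334 and 279 in normoxia (1.95-fold higher, log2 0.97 ± 0.14, adjusted p = 3.72e-06). JUNB, often an antagonist of JUN, had 1720.2 and 2058 at 24 h, against 727 and 589.7 in normoxia (2.87-fold higher, log2 1.52 ± 0.24, adjusted p = 1.43e-05). JUND, the JUN protein that is usually present without stimulation, had 18554 and 21100.5 at 24 h, against 11856 and 12613 in normoxia (1.62-fold higher, log2 0.69 ± 0.13, adjusted p = 0.000117). For each of these 4 genes both arrays at 24 h lay above both in normoxia. The share of all genes for which this held was not counted. At 12 h the log2 changes were 0.47 ± 0.14 for FOSL2, 0.71 ± 0.24 for JUNB and 0.58 ± 0.13 for JUND (adjusted p = 0.0166, 0.0386 and 0.00199). On the signals as deposited these 3 calls were lost (0.21, 0.39 and 0.27, adjusted p = 0.218, 0.137 and 0.222), the call of JUNB was also lost without any one of the 4 arrays compared, that of FOSL1 without 12 h replicate 2 (1.01, adjusted p = 0.0527), and that of FOSL2 without normoxia replicate 2 or 12 h replicate 2 (0.34 and 0.40).

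ATF3 and FOSB did not pass the test before 24 h and were raised at 24 h. ATF3 had 1496 and 1402 at 12 h, against 1123 and 1429 in normoxia, and these arrays overlapped (log2 0.19 ± 0.12, adjusted p = 0.348). At 24 h its signals of 3322 and 3545 lay far above every other shGFP array, and ATF3 was 2.71-fold higher than in normoxia (log2 1.44 ± 0.12, adjusted p = 2.15e-09). FOSB had 369.9 and 419.8 at 24 h, against 223 and 254 in normoxia (1.65-fold higher, log2 0.73 ± 0.13, adjusted p = 5.64e-05), and at 12 h its arrays (264 and 234) overlapped normoxia. EGR1 had 182, 207 and 202 at 3 h and 229 and 203 at 24 h, against 187 and 193 in normoxia. Its log2 change at 24 h was 0.18 ± 0.12 (95% interval -0.07 to 0.43, adjusted p = 0.294), on a probe that was near the array median throughout. The arrays at 24 h were dimmer than those in normoxia. The signals as deposited shifted the median over all genes by -0.41 at 24 h. On them 6 of 9 members were higher, 0.21 for FOSB and 0.23 for JUND being no longer past the threshold (adjusted p = 0.183 and 0.249), beside 7.23% of all genes higher and 59.6% lower (20.2% and 23.2% after quantile normalisation).

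**Figure D2:**
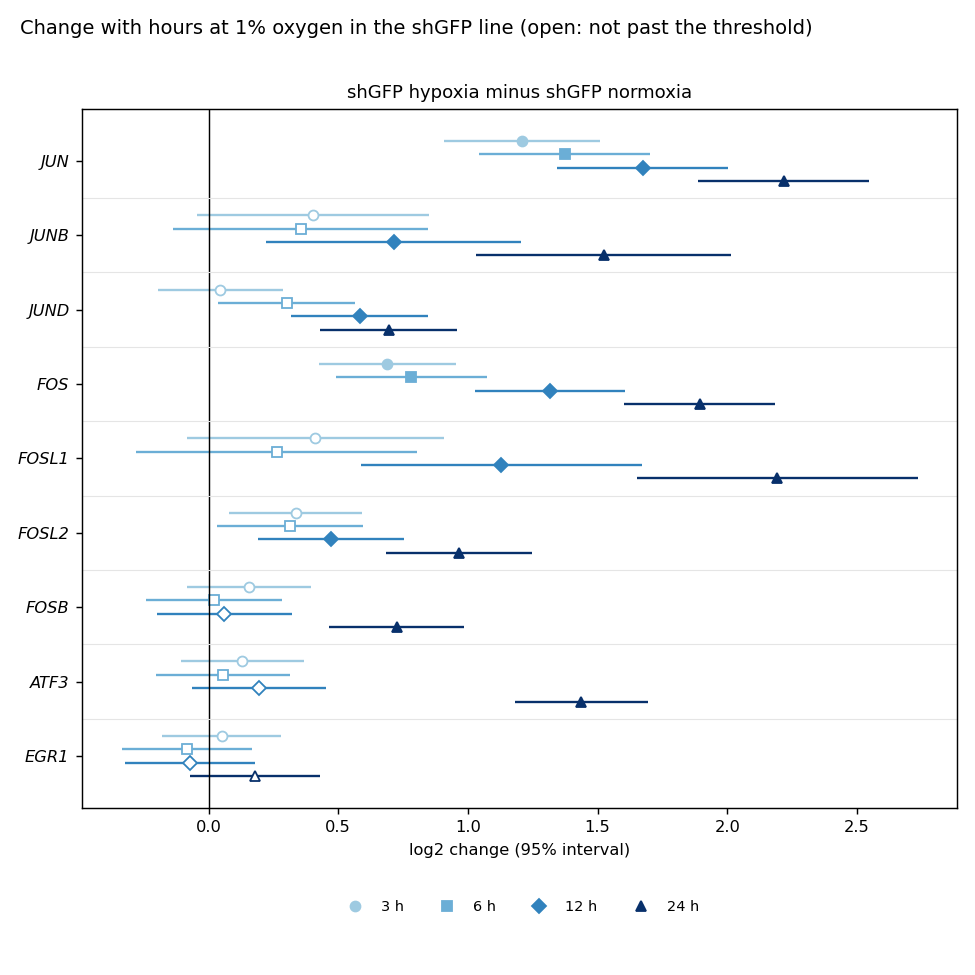
Log2 change of each member in the shGFP line at 3, 6, 12 and 24 h of 1% oxygen minus normoxia (horizontal axis), with 95% intervals from limma; filled symbols are past the threshold. JUN (log2 1.21) and FOS (0.69) are the filled symbols at 3 h, and EGR1 has none.

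Steps between neighbouring times in the shGFP line were also tested, and most calls fell between 12 h and 24 h. From 3 h to 6 h no member passed the test (background 0.669% of genes in either direction, and with limma FOS gave 0.092 ± 0.13 and JUN 0.16 ± 0.15). Between 6 h and 12 h FOS alone passed (log2 0.53 ± 0.14, adjusted p = 0.025, background 3.98% higher), and that call was lost without any one of its 4 arrays. Between 12 h and 24 h, 7 of 9 members were higher (background 11.2%), all but JUND and EGR1. The log2 steps were 1.24 ± 0.12 for ATF3, 1.06 ± 0.26 for FOSL1, 0.81 ± 0.24 for JUNB and 0.66 ± 0.13 for FOSB. FOS, JUN and FOSL2 gave 0.58 ± 0.14, 0.54 ± 0.16 and 0.49 ± 0.14. On the signals as deposited, the steps of FOS, FOSL2, JUN and JUNB no longer passed (0.24, 0.17, 0.32 and 0.47), and those of ATF3, FOSB and FOSL1 did (0.93, 0.40 and 0.73). Leaving out 24 h replicate 2 ended the calls of FOS, FOSL1, FOSL2 and JUNB, leaving out 12 h replicate 1 those of FOSL1, FOSL2, JUN and JUNB, and leaving out 12 h replicate 2 or 24 h replicate 1 that of JUN.

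To see how the members' levels differ when the targeted factor is reduced, shHIF-1A cells were set against shGFP cells of the same hours. Without normoxia arrays of this line, a difference that was there before hypoxia cannot be told apart from a changed response. Over 3 h, 6 h and 12 h, 8 of 9 members were lower in the shHIF-1A line and 0 higher, against 18.2% of all genes lower and 18.4% higher. EGR1 was the member that did not pass (-0.13 ± 0.066, adjusted p = 0.171), and the median log2 change was -0.47 for the members and 0.0036 for all genes. FOSL1 and JUN differed most. FOSL1 had 296, 293 and 284 at 3 h in the shHIF-1A line, against 851, 727 and 824 in the shGFP line, and 220.4 and 236 at 12 h, against 1213 and 1423. Every shHIF-1A array lay below every shGFP array, normoxia included, and FOSL1 was 3.59-fold lower on average (log2 -1.84 ± 0.14, adjusted p = 3.97e-10). JUN had 3200.1, 2588 and 3135 at 3 h, against 6265, 5378 and 5828 in the shGFP line, and 3109.9 and 3388 at 12 h, against 7829 and 8209.6. It was 2.35-fold lower on average (log2 -1.23 ± 0.087, adjusted p = 7.2e-11), and its shHIF-1A arrays, at 2307 to 3388, lay around the shGFP normoxia arrays of 2189 and 2887. At 3 h, 6 h and 12 h its log2 differences were -0.97 ± 0.13, -1.43 ± 0.16 and -1.30 ± 0.16, and those of FOSL1 -1.46 ± 0.21, -1.55 ± 0.26 and -2.53 ± 0.26, all past the threshold.

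The other members differed by less than 1.5-fold on average. FOS was 1.43-fold lower (log2 -0.52 ± 0.076, adjusted p = 9e-06), ATF3 1.39-fold (log2 -0.47 ± 0.068, adjusted p = 6.1e-06), JUNB 1.41-fold (log2 -0.49 ± 0.13, adjusted p = 0.0048) and JUND 1.3-fold (log2 -0.38 ± 0.07, adjusted p = 0.000152). FOSL2 and FOSB were 1.23-fold and 1.22-fold lower (-0.30 ± 0.074 and -0.28 ± 0.069, adjusted p = 0.00288 and 0.00239). By single times, 7 members were lower at 3 h (background 12.4%), 4 at 6 h (8.98%) and 4 at 12 h (11.4%). The 6 h count was 2 without replicate 1 of either line, where FOS and JUND no longer passed, and 3 without replicate 2 of either line, where JUND did not. The 3 h count was 5 to 6 with single arrays left out and 4 on the signals as deposited. FOSL2 no longer passed without any one of the 6 arrays (adjusted p = 0.0532 to 0.135), and FOSB without replicate 3 of either line (adjusted p = 0.0736 for shHIF-1A and 0.0521 for shGFP), while JUND passed without shHIF-1A replicate 2 (-0.35). At 12 h JUND was lost without replicate 2 of either line, which left 3. FOS had 853, 959.5 and 942 at 3 h, against 1427, 1505 and 1612 in the shGFP line (log2 -0.72 ± 0.11, adjusted p = 6.43e-05). At 12 h it had 1959 and 1951, against 2302 and 2370.0, and the difference no longer passed (log2 -0.26 ± 0.14, adjusted p = 0.271). JUNB likewise gave -0.87 ± 0.19 at 3 h and -0.16 ± 0.24 at 12 h (adjusted p = 0.00231 and 0.77). ATF3 gave -0.37 ± 0.10 at 3 h and -0.80 ± 0.12 at 12 h (adjusted p = 0.013 and 5.1e-05), with 762 and 902 at 12 h, against 1496 and 1402 in the shGFP line. The 3 h call of ATF3 was lost on the signals as deposited (-0.21, adjusted p = 0.397) and without shGFP 3 h replicate 2 or shHIF-1A 3 h replicate 2 (adjusted p = 0.0506 and 0.0691). The change of the shHIF-1A effect between 3 h and 12 h was itself tested, and with limma 0 of 9 members passed (background 0.859% of genes), 4 of 9 having an unadjusted p under 0.05. FOSL1 came closest (log2 -1.07 ± 0.34, adjusted p = 0.195). With array weights, or with only the groups compared in the fit, it passed (-1.08 and -1.07, adjusted p = 0.00248 and 0.00405).

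For shNDRG3 cells the same comparison was made at 6 h, 12 h and 24 h, with the same limit. Its effects at 6 h and 12 h share the shGFP arrays with those of the shHIF-1A line. Over the 3 times, 8 of 9 members were lower and 0 higher, against 20.2% of all genes lower and 21.9% higher. EGR1 did not pass (0.018 ± 0.07, 95% interval -0.13 to 0.16), and the median log2 change was -0.66 for the members and 0.015 for all genes. FOSL1 was 3.5-fold lower (log2 -1.81 ± 0.15, adjusted p = 9.57e-10), JUN 3.41-fold (log2 -1.77 ± 0.092, adjusted p = 1.61e-13), ATF3 2.03-fold (log2 -1.02 ± 0.072, adjusted p = 4.62e-11) and JUNB 1.87-fold (log2 -0.91 ± 0.14, adjusted p = 9.13e-06). JUND and FOSB were 1.58-fold and at least 1.49-fold lower (-0.66 ± 0.074 and -0.58 ± 0.073, adjusted p = 1.22e-07 and 6.4e-07), and FOS and FOSL2 1.28-fold and 1.24-fold (-0.35 ± 0.081 and -0.30 ± 0.079, adjusted p = 0.00113 and 0.00338).

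JUN in the shNDRG3 line had 1124 and 1222 at 6 h, against 6475 and 6552 in the shGFP line. These 2 arrays were below those of all other groups, shGFP normoxia included, and JUN at 6 h was 5.56-fold lower than in shGFP cells (log2 -2.47 ± 0.16, adjusted p = 2.85e-11). At 24 h JUN had 7847 and 5064, against 12565 and 10878, which was 1.85-fold lower (log2 -0.89 ± 0.16, adjusted p = 0.000146). Without shNDRG3 replicate 2 this difference was -0.58 (adjusted p = 0.00686), and without replicate 1 -1.21. FOSL1 had 261 and 285 at 6 h and 234 and 296 at 12 h in the shNDRG3 line, against 686 and 757, and 1213 and 1423, in the shGFP line. At 24 h the 2 shNDRG3 arrays were far apart, with 1445 and 496, against 2496 and 3021. FOSL1 was lower there by either array, at log2 -0.93 without replicate 2 and -2.47 without replicate 1 (both arrays -1.70 ± 0.26). JUNB split in the same way at 24 h, with 1605 and 659, against 1720.2 and 2058. Its 24 h difference (log2 -0.87 ± 0.24, adjusted p = 0.00791) rested on replicate 2, without which it was -0.23 (adjusted p = 0.414), against -1.51 without replicate 1, and it was also lost without shGFP 24 h replicate 2 (adjusted p = 0.0952). FOS and FOSL2 did not pass at 24 h (-0.13 ± 0.14 and -0.22 ± 0.14, adjusted p = 0.607 and 0.287). Their sign depended on the shNDRG3 array kept, at -0.43 and -0.51 without replicate 1 and 0.17 and 0.062 without replicate 2. In a fit to the 2 groups alone, JUN, FOSL1, JUNB and JUND were no longer past the threshold at 24 h (adjusted p = 0.0956, 0.122, 0.329 and 0.12).

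ATF3 and FOSB differed most from the shGFP line at 24 h, when they were high there. ATF3 had 654 and 809 at 24 h, against 3322 and 3545 in the shGFP line, a 4.72-fold lower level (log2 -2.24 ± 0.12, adjusted p = 2.88e-12). At 6 h it had 1018 and 1083, against 1277 and 1358, which did not pass (log2 -0.33 ± 0.12, adjusted p = 0.0764). FOSB had 211 and 182 at 24 h, against 369.9 and 419.8 (at least 2.01-fold lower, log2 -1.01 ± 0.13, adjusted p = 1.48e-06), and at 6 h it gave -0.31 ± 0.13 (adjusted p = 0.0972). Both genes were past the threshold at 24 h with either shNDRG3 array left out. By single times, 5 members were lower at 6 h (background 12.5%), 7 at 12 h (13.2%) and 6 at 24 h (15.2%), and 0 were higher at any of these times. The 24 h count was 8 without shNDRG3 24 h replicate 1, 5 without its replicate 2, 6 without shGFP 24 h replicate 1 and 4 without shGFP 24 h replicate 2. The 12 h count was 5 without any one of its 4 arrays: JUNB was lost without any but shGFP replicate 1, FOSB without replicate 1 of either line, FOSL2 without replicate 2 of either line, and ATF3 without shGFP replicate 1. At 6 h FOSB passed without shNDRG3 replicate 1 (-0.47). JUND was lower at all 3 times, with log2 changes of -0.71 ± 0.13, -0.74 ± 0.13 and -0.52 ± 0.13. Its 24 h call was lost on the signals as deposited (-0.43, adjusted p = 0.0929) and without shGFP 24 h replicate 2 (adjusted p = 0.0669).

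**Figure D3:**
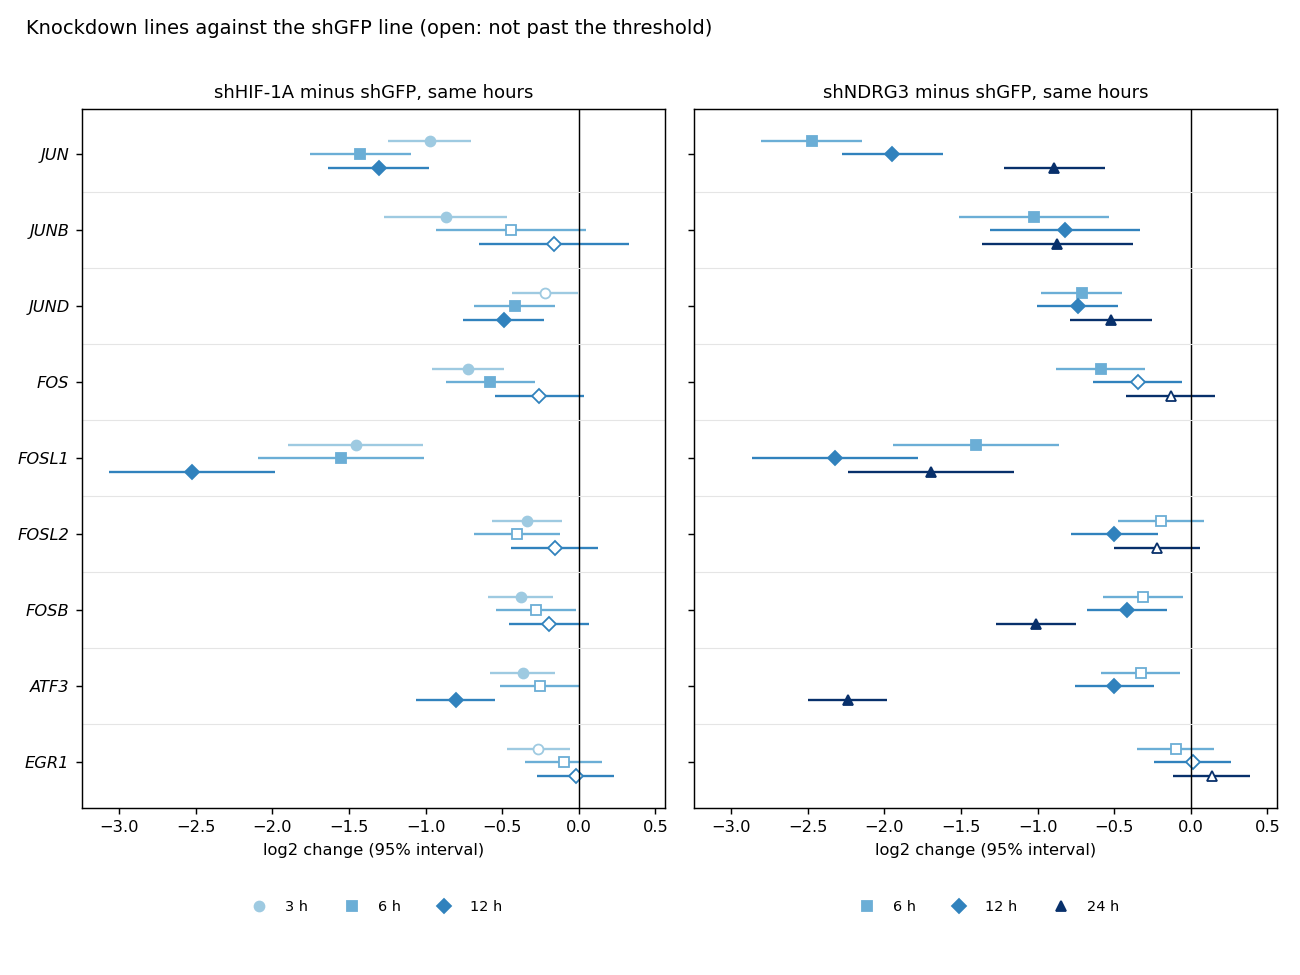
Log2 difference of the shHIF-1A line (left) and of the shNDRG3 line (right) from the shGFP line at the same hours (horizontal axis), with 95% intervals from limma; filled symbols are past the threshold. FOSL1 and JUN are filled at every time in both panels, and ATF3 reaches -2.24 in the shNDRG3 line at 24 h.

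The size of the shNDRG3 effect changed between 6 h and 24 h for 3 of 9 members by limma's test of the change itself (background 9.21% of genes in either direction). The JUN difference became smaller (log2 1.58 ± 0.23, adjusted p = 6.84e-05), and those of ATF3 (log2 -1.91 ± 0.18, adjusted p = 2.55e-07) and FOSB (log2 -0.70 ± 0.18, adjusted p = 0.0174) became larger. The FOSB call was lost with arrays centred on their medians (-0.54, adjusted p = 0.137), on the signals as deposited, with array weights, with only the compared groups, and without shGFP 6 h replicate 2, shGFP 24 h replicate 2, shNDRG3 6 h replicate 1 or shNDRG3 24 h replicate 2. JUN and ATF3 passed under all alternatives run. The changes of FOS, JUNB and FOSL1 did not pass with both shNDRG3 24 h arrays (0.46, 0.15 and -0.30) and depended on the array kept. Without replicate 2 they were 0.76, 0.79 and 0.47, and without replicate 1 they were 0.16, -0.49 and -1.07.

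Within the knockdown lines the members also moved with time. In the shHIF-1A line, 0 of 9 passed between 3 h and 6 h (background 0.761%) by limma, with unadjusted p under 0.05 for 0. Between 6 h and 12 h FOS alone was higher (log2 0.86 ± 0.14, adjusted p = 0.000821, background 2.84%), with 1959 and 1951 at 12 h, against 1054 and 1105 at 6 h. In the shNDRG3 line, FOS and JUN were higher at 12 h than at 6 h (0.78 ± 0.14 and 0.82 ± 0.16, adjusted p = 0.00103 and 0.00194, background 5.25%). Thus FOS was higher at 12 h than at 6 h in each of the 3 lines, the shGFP step being 0.53 ± 0.14. Between 12 h and 24 h in the shNDRG3 line, 6 members were higher and ATF3 was lower (background 12.3% higher and 13.3% lower). JUN and FOSL1 had the largest steps (1.60 ± 0.16 and 1.69 ± 0.26), followed by FOS, FOSL2 and JUNB (0.79 ± 0.14, 0.77 ± 0.14 and 0.76 ± 0.24). ATF3 had 654 and 809 at 24 h in that line, against 1020.0 and 1031 at 12 h (log2 -0.50 ± 0.12, adjusted p = 0.00554). In the shGFP line its step over the same hours was 1.24 ± 0.12. Without shNDRG3 24 h replicate 1, the steps of ATF3 (-0.34), JUNB (0.12) and EGR1 (0.18, against 0.38 ± 0.12 with both) no longer passed (adjusted p = 0.101, 0.748 and 0.436). The steps of JUNB and EGR1 were also lost without either 12 h array, and a fit to the 2 groups alone kept the call of JUN only. Without the same 24 h replicate 1, the steps that still passed were 0.91 for FOSL1, 0.49 for FOS, 0.49 for FOSL2 and 1.29 for JUN, and that of JUND passed as well (0.46, adjusted p = 0.0281, against 0.33 ± 0.13 and 0.0782 with both). Without 24 h replicate 2, JUNB gave 1.40 and EGR1 0.58.

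The knockdown lines were set against each other at 6 h and 12 h, where both had arrays. JUN and JUNB were higher in the shHIF-1A line than in the shNDRG3 line, 2 of 9 members against 7.81% of all genes higher and 6.45% lower. JUN had 2307 and 2543 at 6 h in shHIF-1A cells, against 1124 and 1222 in the shNDRG3 line, and 3109.9 and 3388 at 12 h, against 2092 and 2061. The lines did not overlap, and JUN was 1.8-fold higher over both times (log2 0.85 ± 0.11, adjusted p = 9.67e-06). JUNB had 644 and 589, and 1046 and 880.4, at the 2 times in the shHIF-1A line, against 404 and 419.6, and 605 and 610.1, in the shNDRG3 line (log2 0.62 ± 0.17, adjusted p = 0.0168). This call was lost without replicate 1 of any of the 4 groups (adjusted p = 0.0583 to 0.0863). JUND missed the threshold (log2 0.27 ± 0.09, adjusted p = 0.0609), and passed with the replicate number as a block (adjusted p = 0.0427) and when each gene was tested by 1 probe (adjusted p = 0.0426). For FOSL1, FOS and ATF3 the differences were -0.18 (95% interval -0.56 to 0.21), 0.049 (-0.16 to 0.25) and -0.12 (-0.30 to 0.065).

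Ordered by group mean, each member except EGR1 was highest in the shGFP line at 24 h. This group did not overlap the next one for JUN, JUNB, FOSL1, FOSB and ATF3, and it overlapped shNDRG3 24 h for FOS and FOSL2 and shGFP 12 h for JUND. The lowest group was shNDRG3 6 h for JUN, JUNB and JUND, shHIF-1A 12 h for FOSL1, shHIF-1A 3 h for FOS and EGR1, shHIF-1A 6 h for FOSL2, shNDRG3 12 h for FOSB and shNDRG3 24 h for ATF3. For JUND and JUN the lowest group lay below the next without overlap, and for the others it overlapped the next. The shares of all genes that peaked in shGFP 24 h, or whose highest or lowest group stood without overlap, were not counted. The group means spanned log2 3.59 for FOSL1, 3.32 for JUN, 2.24 for ATF3 and 2.19 for JUNB. They spanned 1.93 for FOS, 1.11 for JUND, 1.08 for FOSB, 1.05 for FOSL2 and 0.53 for EGR1. Over the 11 group means all pairs of members correlated positively, from Pearson r = 0.20 (ATF3 and EGR1) to 0.93 (JUN and JUND). JUN was most like JUND (0.93) and JUNB (0.89), and FOS was most like FOSL2 (0.89). FOS also followed JUNB (0.86), JUND (0.75) and JUN (0.74), and FOSL1 followed JUN and JUND (0.87 each). ATF3 was most like FOSB (0.92) and little like FOS (0.29). These values share the effects of line and time and are a description.

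Among 4328 other genes whose group means spanned at least log2 1, those whose 11 group means correlated best with a member were named as follows, again as a description. For JUNB they were ZFP36, FBXO2 and OLMALINC (r = 0.98 each), of which ZFP36 encodes a factor that speeds the decay of AU-rich mRNAs and is itself an immediate early gene. For JUND they were MPZL2, MAN2B2 and PLAU (r = 0.98 each), of which PLAU encodes urokinase. For JUN they were LCOR, TPBG and NCSTN (r = 0.95 to 0.97). FOSL1 was nearest to ZBTB43, EHD4 and C1orf116 (r = 0.98 each), FOS to C1QL1, ZNF385A and BCL6 (r = 0.98 each), FOSL2 to THBS3, ZNF217 and SERTAD3 (r = 0.95 to 0.97) and FOSB to TINAGL1, DNAJB9 and THSD4 (r = 0.97 each). ATF3 was nearest to TRAF1, CTDP1 and BLOC1S2 (r = 0.95 to 0.97), of which TRAF1 is an adaptor of tumour necrosis factor receptors. The dim EGR1 probe was nearest to SNORD3A, CRELD1 and GOLGA8O (r = 0.92 to 0.94), the last a member of a family of near-identical copies.

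Other genes of the pathway were read from lists grouped by function, each gene by its brightest kept probe. The lists were chosen with earlier results of these data known, so their counts are a description. Among other immediate early genes, shGFP cells at 24 h had 8 of 15 genes higher and 3 lower, with a median log2 change of 0.77, against 20.2% and 23.2% of all genes. ZFP36 (4.76-fold), PPP1R15A, a regulator of eIF2α dephosphorylation (3.5-fold), and the MAP kinase phosphatase DUSP1 (1.83-fold) were higher, and the matricellular protein gene CCN1 was 4.74-fold lower. At 3 h, 0 of these 15 genes were higher and 0 lower by limma's test (2 at an unadjusted p under 0.05), beside 1.18% of all genes higher and 0.144% lower. In the shHIF-1A line over its 3 times the list had 0 of 15 genes higher and 9 lower, with a median log2 change of -0.31, against 18.4% of all genes higher and 18.2% lower. In the shNDRG3 line it had 0 of 15 genes higher and 10 lower, with a median log2 change of -0.46, against 21.9% and 20.2%. There CCN1 was 5.78-fold lower, ZFP36 3.0-fold, IER5 2.8-fold and DUSP1 2.58-fold. Between the knockdown lines, 6 of 15 were higher in the shHIF-1A line and 0 lower (all genes 7.81% and 6.45%), led by DUSP1 (1.98-fold), IER3 (1.88-fold) and ZFP36 (1.92-fold).

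Genes with well known AP-1 sites, 13 of them measured apart from the members, had 9 higher and 2 lower in shGFP cells at 24 h (median log2 change 0.79), where 20.2% of all genes were higher and 23.2% lower. The chemokine gene CXCL8 was 4.05-fold higher, the cytokine gene IL6 2.84-fold, the heme oxygenase gene HMOX1 2.64-fold and PLAU 2.21-fold. At 6 h IL6 was 1.72-fold lower. In the shHIF-1A line 12 of 13 were lower and 0 higher (median -1.29, all genes 18.2% lower and 18.4% higher), and in the shNDRG3 line 11 were lower and 1 higher (median -1.40, all genes 20.2% and 21.9%). The cyclin D1 gene CCND1 was 7.1-fold lower in the shHIF-1A line and 4.54-fold lower in the shNDRG3 line, and CXCL8 4.72-fold and at least 9.14-fold. IL6 was 3.3-fold lower in the shHIF-1A line and at least 16.2-fold lower in the shNDRG3 line. These genes are also controlled by other factors, and the part of AP-1 in their levels was not tested.

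Among other basic leucine zipper partners, 2 of 14 were higher and 5 lower at 24 h in shGFP cells (median -0.11, all genes 20.2% and 23.2%). The small MAF protein gene MAFF was 3.68-fold higher and already past the threshold at 3 h (1.6-fold), the stress factor gene DDIT3 was 3.28-fold higher, and ATF5 3.69-fold lower. MAFF was 2.1-fold lower in the shHIF-1A line and 2.06-fold in the shNDRG3 line, and DDIT3 1.95-fold and 2.25-fold. In all, 2 of these genes were higher and 4 lower in the shHIF-1A line, and 2 and 5 in the shNDRG3 line, beside 18.4% of all genes higher and 18.2% lower for shHIF-1A, and 21.9% and 20.2% for shNDRG3. Of 13 upstream kinases and factors, 7 were higher and 3 lower at 24 h in shGFP cells (all genes 20.2% and 23.2%). MAP2K1, the kinase that activates ERK, was higher at every time (1.46-fold at 3 h and 2.94-fold at 24 h), NAB2, a corepressor of EGR proteins, was 2.71-fold higher and SRF, the factor that binds the CArG box, 2.03-fold lower at 24 h. In the shHIF-1A line 3 of these genes were higher and 4 lower, and in the shNDRG3 line 1 and 4, beside the same shares of all genes as for the leucine zipper partners. MAPK3, which encodes ERK1, was 1.38-fold lower in the shHIF-1A line and 1.61-fold lower in the shNDRG3 line, and MEN1, whose protein binds JUND, was 1.24-fold and 1.32-fold higher.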

How the data were processed

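Total RNA (200 ng) was amplified with an Illumina TotalPrep kit, per the labels' protocols. The authors deposited linear intensities per probe (52.6 to 59613), and how these were corrected or scaled is not given in the sources used here. Groups came from sample titles. After log2 and quantile normalization, limma fitted 11 group means over all arrays to 31100 kept probes (version 3.58.1 under R 4.3.3, lmFit and eBayes, 13 residual and 9.6 prior degrees of freedom). P-values are two-sided and adjusted by the Benjamini-Hochberg method over all kept probes within each comparison. Values after ± are standard errors on the log2 scale. Symbols came from the platform annotation, promoter sequences from RefSeq. Members, lists and rules were chosen with earlier results of these data known. List genes were named by the smallest p (at most 4 per list and comparison), and like genes by the 3 highest correlations per member. Alternatives changed scaling, background correction, filter, probe choice, fitted samples, array weights and replicate block, or left out each array. The number of arrays limits the precision. The fit was tested on simulated data.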

Additional observations from a re-analysis of the deposited data

Results flagged for a closer look

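For 3 members the shNDRG3 effect at 24 h differed from that at 6 h by limma's test of the interaction. For ATF3 the difference between the effects was log2 -1.91, with 654 and 809 at 24 h in the shNDRG3 line, against 3322 and 3545 in the shGFP line, and 1018 and 1083 at 6 h, against 1277 and 1358. For JUN it was 1.58, since the shNDRG3 level was 5.56-fold lower at 6 h and 1.85-fold lower at 24 h. For FOSB it was -0.70, on a dim probe. No group had enough arrays for a test of single outlying arrays.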

How the results depend on the processing

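On the signals as deposited, 1 member passed at 3 h (against 2) and 3 at 12 h (against 6), all higher. Of all genes, 0.42% were then higher at 3 h and 4.5% at 12 h, against 1.18% and 12.1% after quantile normalisation. The shares lower were 0.505% and 31.9%, against 0.144% and 11.3%. The change of the shHIF-1A effect had 1 member past the threshold with array weights and 1 with only the compared groups in the fit, against 0. With single arrays left out, the counts were 1 to 2 at 3 h, 2 to 2 at 6 h, 3 to 5 at 12 h and 8 to 8 at 24 h, 8 to 8 for shHIF-1A, 8 to 8 for shNDRG3, 1 to 2 between the knockdown lines, and 0 to 0 and 2 to 4 for the changes of the shHIF-1A and shNDRG3 effects. The lowest counts came without shGFP normoxia replicate 2 at 3 h and without shGFP 12 h replicate 2 at 12 h, and each omission from a pair leaves 1 array, assumed to vary like the other groups. Over the members' single values in 24 comparisons, no called direction reversed. With each value counted once per setting, 47 lost and 49 gained a call under the other alternatives, and 1824 did neither. With arrays left out, 70 lost and 8 gained a call, and 1119 did neither. The causes were not tested. Replicate numbers are shared between groups, but deviations of same-numbered arrays correlated at -0.095 to 0.28 over 111 comparisons. Where both groups had 2 arrays, replicates 1 and 2 gave the same r, so these comparisons are not all separate. Replicate numbers were not taken to pair samples. The replicate block left the counts at 8 for 24 h, 8 for shHIF-1A, 8 for shNDRG3 and 2, 2 and 6 for 3 h, 6 h and 12 h, 0 and 3 for the changes of effect, and gave 3 between the knockdown lines (JUND added). Probes near background, EGR1 above all, limit what a change can show.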
